A study of Homo sapiens with 2 samples.

Results

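The 10 genes described here encode enzymes that build and modify heparan sulfate: the polymerase genes EXT1 and EXT2, the EXT-like genes EXTL1, EXTL2 and EXTL3, and the genes NDST1, NDST2, GLCE, HS2ST1 and HS6ST1, whose products modify the chain. They are 10 of 19866 protein-coding genes of the RefSeq annotation of GRCh38. They were chosen by pathway with earlier results from the same peak list known, and the broad peak domain of EXT1 was among the values that chose them, so their peaks are given as a description with no test. All peaks are from the lung cancer cell line H1299 (human, non-small cell), in which ChIP-seq, the sequencing of DNA pulled down with an antibody, mapped H3K18la, the lactylation of lysine 18 of histone H3. The study has 2 libraries, H3K18la ChIP and input, both from H1299 with no treatment named in the labels, and only the peak list of the H3K18la ChIP library was analysed. With 1 library there was no replicate, so no value below carries an error between libraries and no p-value is given.

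Heparan sulfate is a long sulfated sugar chain carried by cell-surface and matrix proteoglycans, where it binds growth factors, morphogens and matrix proteins. The chain starts on a linkage sugar bound to a serine of the core protein. It is extended by the EXT1 and EXT2 proteins, which work as a complex, and is then modified along stretches of its length by N-deacetylation and N-sulfation, epimerisation of glucuronic acid and O-sulfation. Inherited loss of 1 copy of EXT1 or EXT2 causes multiple bone exostoses. H3K18la is a histone mark derived from lactate and is found mainly at active promoters and enhancers.

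The promoter windows of 5 genes show what the sequence at a start looked like where a peak lay over it, beside it or not at all. Each window is 300 bases of RefSeq GRCh38.p14 sequence, 250 before and 50 after the annotated start, written 5′ to 3′ along the gene's own strand. Capitals mark CpG dinucleotides, which cluster in the CpG islands of many promoters.
HS2ST1, chr1:86914385-86914684, plus strand: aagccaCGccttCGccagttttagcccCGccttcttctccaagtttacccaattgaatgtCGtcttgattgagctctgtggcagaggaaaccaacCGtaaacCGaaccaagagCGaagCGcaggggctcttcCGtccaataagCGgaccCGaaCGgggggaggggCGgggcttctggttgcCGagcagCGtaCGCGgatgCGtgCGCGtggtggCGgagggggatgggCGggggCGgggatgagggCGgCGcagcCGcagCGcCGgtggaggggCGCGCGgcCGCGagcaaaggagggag
EXTL2, chr1:100894793-100895092, minus strand: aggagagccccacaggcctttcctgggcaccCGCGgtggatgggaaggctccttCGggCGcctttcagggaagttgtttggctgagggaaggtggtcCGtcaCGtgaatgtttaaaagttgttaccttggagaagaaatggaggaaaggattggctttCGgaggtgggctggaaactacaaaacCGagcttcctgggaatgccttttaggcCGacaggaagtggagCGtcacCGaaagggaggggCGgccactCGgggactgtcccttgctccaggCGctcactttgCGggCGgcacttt
HS6ST1, chr2:128318819-128319118, minus strand: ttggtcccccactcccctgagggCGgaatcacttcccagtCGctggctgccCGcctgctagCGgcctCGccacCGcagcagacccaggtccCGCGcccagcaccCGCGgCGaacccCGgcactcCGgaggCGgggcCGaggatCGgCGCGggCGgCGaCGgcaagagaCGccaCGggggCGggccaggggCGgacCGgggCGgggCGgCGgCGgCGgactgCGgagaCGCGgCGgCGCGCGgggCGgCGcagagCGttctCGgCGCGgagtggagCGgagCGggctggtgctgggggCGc
NDST1, chr5:150497529-150497828, plus strand: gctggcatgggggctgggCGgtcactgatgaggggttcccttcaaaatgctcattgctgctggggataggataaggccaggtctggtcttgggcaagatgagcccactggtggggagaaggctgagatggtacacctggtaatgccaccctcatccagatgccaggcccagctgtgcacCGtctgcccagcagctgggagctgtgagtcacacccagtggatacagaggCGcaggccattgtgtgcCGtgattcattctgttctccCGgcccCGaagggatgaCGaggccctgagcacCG
EXTL1, chr1:26021525-26021824, plus strand: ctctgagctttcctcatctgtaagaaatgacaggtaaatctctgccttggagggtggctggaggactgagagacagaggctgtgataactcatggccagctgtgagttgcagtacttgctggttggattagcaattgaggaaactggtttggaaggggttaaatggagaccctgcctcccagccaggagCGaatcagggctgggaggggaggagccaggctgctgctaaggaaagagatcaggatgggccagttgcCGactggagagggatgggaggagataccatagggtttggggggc
The windows of HS2ST1 (33 CpG) and EXTL2 (16 CpG) lay wholly under peaks of 6.63-fold and 6.51-fold. The window of HS6ST1 had 47 CpG, at percentile 97.5 of all promoter windows, yet only 21 of its bases, those farthest before the start, lay under a peak (3.22-fold). The window of NDST1 had only 8 CpG and lay wholly under a peak of 3.86-fold. The window of EXTL1 had 2 CpG and no peak.

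Of the 8 members with a promoter window in the RefSeq table, 7 had a peak over at least 1 base of it (87.5%, exact 95% binomial interval 47.3 to 99.7), against 57.1% of the 15843 protein-coding genes with such a window. Among all 22199 windows, the share under a peak was 7.17% with 0 to 5 CpG, 31.8% with 6 to 15, 66.6% with 16 to 25 and 79.8% with 26 or more. EXTL1, with its 2 CpG, is in the lowest class and NDST1 in the next. HS2ST1, HS6ST1, GLCE (29 CpG), NDST2 (35 and 48 CpG at 2 starts) and the inner starts of EXT2 (26 CpG) are in the highest, EXT2's first start (24 CpG) and EXTL2 in the one below. On either strand, the GC box GGGCGG was in at least 1 window of 7 of the 8 members, all but EXTL1. Counted by single windows it was in 56.3% of all and 74.9% of those with a peak. These shares are not quite alike, since EXT2 and NDST2 have more than 1 window and EXT2's first has no GC box. The sequence CCAAT was in 3 members (34.7% of all windows). EXTL2's window holds CACGTG (8.34% of all windows), which contains the hypoxia core ACGTG (23.05%) on both strands, and it was the only member window with either. TATAAA (9.47%) was found in EXT2's first window only, and TGANTCA (6.15%) in that of NDST1 only. CCGGAAG and TGACGTCA (12.8% and 2.26% of all windows) were in none of them. These matches describe letters in the windows.

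The list held 28695 peaks, and 64 of them lay in or within 50000 bp of the 10 genes. A peak was placed at a gene end where it came within 1000 bp of the first or last base of the gene, in the body where it overlapped the gene but neither end, and otherwise in the flank. Peaks at an end were found for 9 of 10 members (90%, 55.5 to 99.7), against 59.1% of all protein-coding genes. EXTL3 was the member without. The interval of the members includes this share of all genes. With a -log10 q of at least 5 or by midpoint the members again had 9 of 10. The shares of all genes were then 52.4% and 54.8%, just below the interval. With only the peaks above the median fold of the list the order turned, with 4 of 10 members (40%) against 8935 of 19866 protein-coding genes (44.98%). The binomial intervals cover counting error only. As the members were chosen with earlier results known, the place of a share inside or outside an interval is no test. The fold enrichment of these end peaks, a ratio to the caller's local background averaged over the peak, ran from 3.22 to 6.63 with a median of 4.34, against a median of 5.66 over all marked protein-coding genes. Only HS2ST1 (6.63-fold) and EXTL2 (6.51-fold) stood above the median of the marked genes. The order below them was EXT1 (5.21), GLCE (4.83), EXT2 (4.34), NDST2 (3.95), EXTL1 (3.87), NDST1 (3.86) and HS6ST1 (3.22), and with 1 library no spread is at hand to separate neighbours in it.

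**Figure D1:**
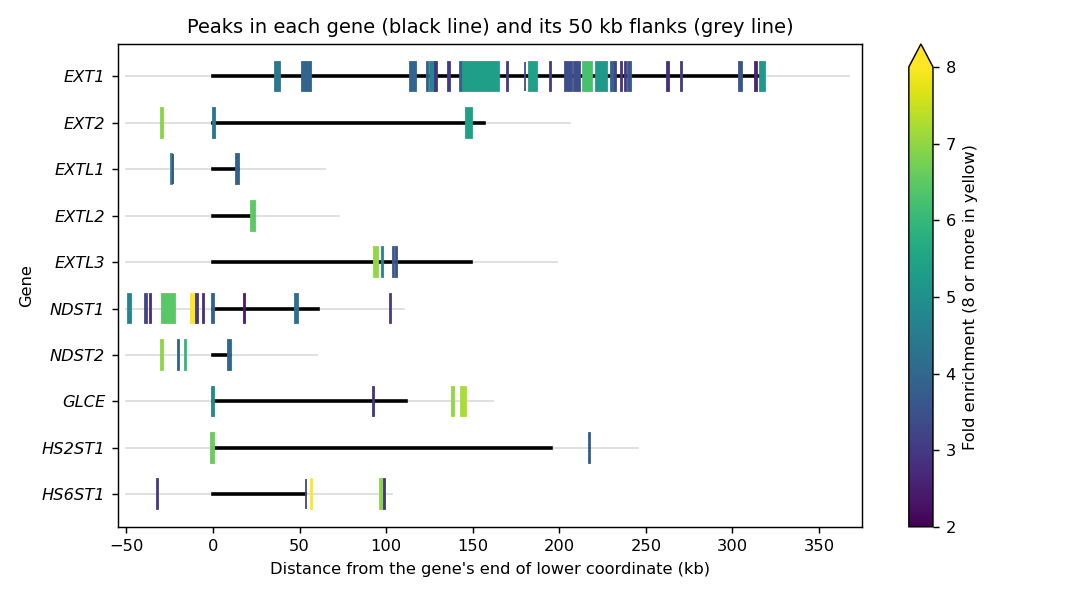
Positions of peaks (coloured boxes) in the 10 genes (black lines) and their 50 kb flanks (grey lines), as distance in kb from the gene's end of lower coordinate; colour is the fold enrichment. EXT1 held 27 of the boxes, spread over most of its length, while HS6ST1 held none inside the gene.

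Body peaks were found in 5 of 10 members (50%, 18.7 to 81.3), against 24.8% of all protein-coding genes. Longer genes have more room for them, so the shares are given by length. Of the 5 members over 100000 bp, EXT1, EXT2, EXTL3 and GLCE had body peaks and HS2ST1 had none, where 59.7% of such protein-coding genes did. Of the 2 members of 30000 to 100000 bp, NDST1 had body peaks and HS6ST1 none (34.1% of all such genes), and the 3 under 30000 bp, EXTL1, EXTL2 and NDST2, had none (9.62%). The members together held 34 body peaks, of which EXT1 had 26 and the other genes 8.

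EXT1 (NCBI gene 2131, chromosome 8, 117794490 to 118111826, 317337 bp) encodes a glycosyltransferase of the polymerase complex that adds both sugars of the repeating disaccharide. The gene is transcribed from its end of higher coordinate, as is known of EXT1, since its strand was not in the tables used. A peak of 2812 bp and 5.21-fold (118110246 to 118113057, -log10 q of 19.2) lay at that end. No peak lay at the other end. The remaining 26 peaks lay inside the gene, from 2.62-fold to 6.25-fold. The strongest of them, 6.25-fold over 5330 bp (118008108 to 118013437), had its middle 101.1 kb into the gene, and 3 more in the body passed 5-fold: 5.38-fold over 4796 bp, 5.36-fold over 20699 bp and 5.22-fold over 6000 bp. The peak of 20699 bp (117938929 to 117959627), with its middle 162.5 kb into the gene, ranked 5 by width in the whole list.

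Peaks covered 73767 bp of EXT1, 23.2% of its length, against a median of 0.822% over the 3355 protein-coding genes longer than 100000 bp. By base pairs covered EXT1 ranked 2 among these genes and by number of peaks, 27 against a median of 2, also 2. By share of length covered it ranked 5, and by peaks per length 12. Most of its peaks were weak: the median fold of the 27 was 3.60, against 4.36 over all peaks, 7 were above that median, and 16 had a -log10 q under 5. Their median width was 1757 bp, against 1250 bp over all peaks. By bases the stronger peaks weighed more. Of the 73767 bp covered, 43541 bp lay under the 7 peaks above the median fold and 54937 bp under the 11 with a -log10 q of at least 5.

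**Figure D2:**
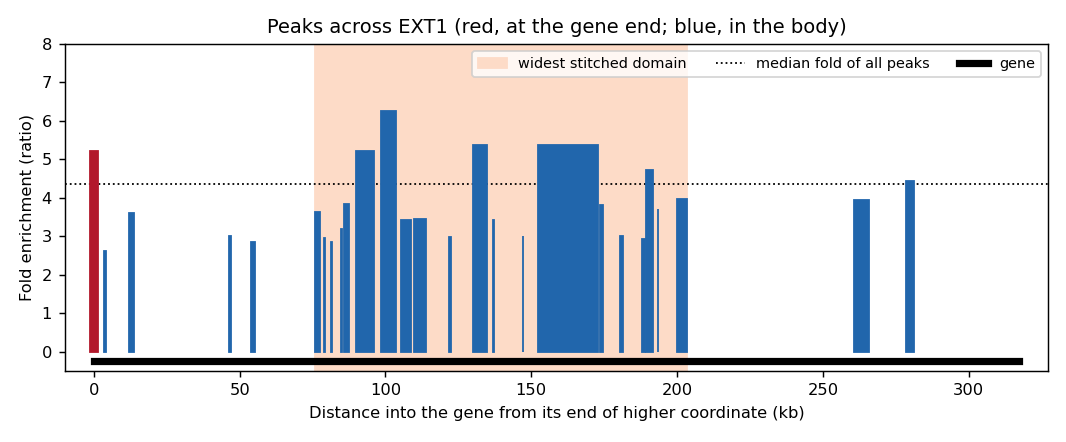
Fold enrichment (height) and extent (width) of each peak across EXT1, by distance in kb from the gene's end of higher coordinate; the shaded stretch is the widest run of peaks joined over gaps of up to 12.5 kb. The 20 shaded peaks span 127616 bp in the middle of the gene, apart from the 5.21-fold peak at the end (red).

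The peaks were densest in the middle of the gene. Counted from the end of higher coordinate, 4 equal stretches of EXT1 had 10.9%, 42.9%, 29.3% and 9.93% of their length under peaks, with 7, 11, 7 and 2 peaks. When peaks separated by 12.5 kb or less were joined, 20 of them formed 1 domain of 127616 bp (117908463 to 118036078), from 75748 to 203363 bp into the gene. It took up 40.2% of the gene and 46.6% of it lay under peaks. It contained 5 peaks above the median fold of the list, and its widest peak made up 34.8% of the bases under peaks. Among the 19125 joined domains and single peaks of the library it ranked 1 by span, by number of peaks and by base pairs under peaks. The rank rested on the distance chosen. With gaps of up to 5000 bp the largest domain of EXT1 spanned 38023 bp (9 peaks, rank 11 by span and 17 by base pairs under peaks). With up to 25000 bp it spanned 157057 bp (22 peaks, rank 23 by span and 6 by base pairs under peaks). With peaks of -log10 q of at least 5 alone, 8 of the 20 remained and the domain broke into separate runs. The widest of these spanned 22494 bp (2 peaks, rank 380 by span and 31 by base pairs under peaks). The base pairs covered in the whole gene ranked 2 or 3 among the long genes whether all peaks were used, those of -log10 q of at least 5 (54937 bp) or those above the median fold (43541 bp). The rank by number of peaks did not hold: it was 6 with the 11 peaks of -log10 q of at least 5 and 13 with the 7 above the median fold.

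The nearest peaks outside lay 172847 bp below and 83519 bp above the gene, so that EXT1 had no peak in its 50000 bp flanks. The neighbouring protein-coding gene above, SAMD12, is 19999 bp away and had 1 peak at an end and 10 in its body (up to 5.996-fold). The next below, MED30, is 254228 bp away and had 1 peak, of 3.63-fold, at an end. Inside EXT1 the only other annotated gene under one of its peaks was the small nucleolar RNA gene SNORD168, in a peak of 4.72-fold (117920128 to 117922448). Exons and introns of EXT1 were not analysed here, since the annotation used gives gene spans only.

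The 5 genes nearest to EXT1 in rank by base pairs covered, among the 3355 long genes and by the peak list of 1 library, were RAD51B (85412 bp, rank 1), SMAD3 (53117 bp), CDK6 (46996 bp), MACF1 (46580 bp) and KCNMA1 (45856 bp). Their highest body peaks ran from 5.67-fold in CDK6 to 9.76-fold in RAD51B, against 6.25-fold in EXT1. At their ends RAD51B, SMAD3, CDK6 and KCNMA1 had 5.81-fold to 9.09-fold, all above the 5.21-fold of EXT1, and MACF1 had no end peak. The DNA repair gene RAD51B, in which 34 peaks lay over a length of 863318 bp, had 9.89% of its length covered, and SMAD3, which encodes a transducer of TGF-beta signals, had 41.0%.

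**Figure D3:**
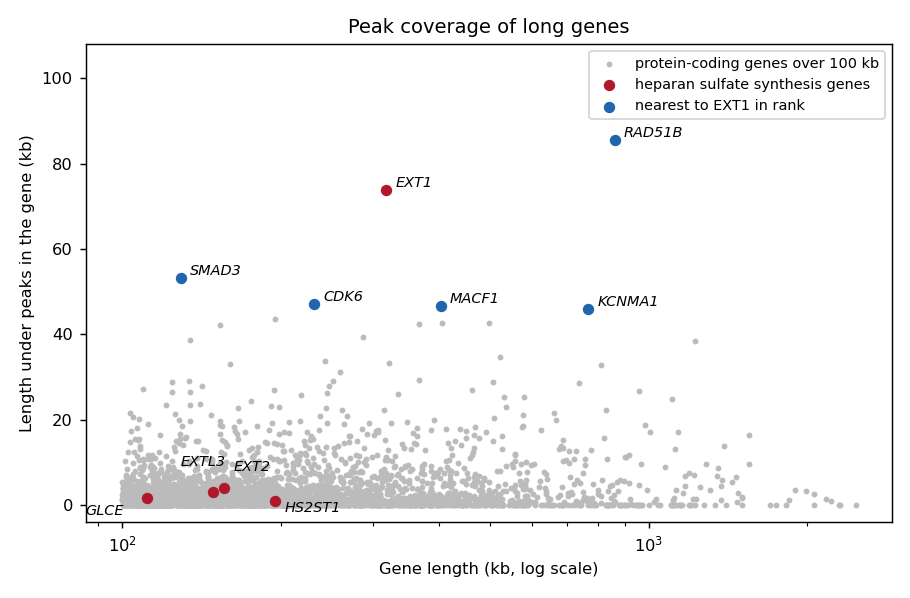
Base pairs under peaks (kb) against gene length (kb, log scale) for protein-coding genes over 100 kb, with members in red and the genes nearest to EXT1 in rank in blue. EXT1 is second only to RAD51B, while EXT2, EXTL3, GLCE and HS2ST1 lie within the mass of long genes.

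The other polymerase gene, EXT2 (NCBI gene 2132, chromosome 11, 44095678 to 44251962), encodes the partner that EXT1 needs for activity and transport to the Golgi. It had 2 peaks over 156285 bp, which covered 2.62% of the gene. A peak of 972 bp and 4.34-fold (44095670 to 44096641) lay over its 3 annotated starts and a stronger one of 3138 bp and 5.40-fold (44241896 to 44245033) lay 145698 bp from the nearest of them, towards the far end of the gene. The end peak of EXT1 had 5.21-fold over 2812 bp and that of EXT2 4.34-fold over 972 bp, at percentiles 66.6 and 49.5 of all peaks by fold, and in their bodies EXT1 had 26 peaks and EXT2 had 1.

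Among the EXT-like genes, EXTL3 and EXTL2 encode glycosyltransferases that act at the start of the chain, and EXTL1 encodes one that can add N-acetylglucosamine to a growing chain. EXTL2 (NCBI gene 2135, chromosome 1, 100872372 to 100895179) had a single peak, of 2564 bp and 6.51-fold with a -log10 q of 24.7 (100894171 to 100896734). It covered the start of EXTL2 and lay also at an end of the zinc transporter gene SLC30A7. EXTL1 (NCBI gene 2134, chromosome 1, 26021775 to 26036464) had no peak at its start, and its one peak at an end (26035062 to 26037115, 3.87-fold) lay 13287 bp from the start, at the far end, which is also near an end of the zinc transporter gene SLC30A2. EXTL1 is therefore counted as marked only through its 3′ end.

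EXTL3 (NCBI gene 2137, chromosome 8, 28607736 to 28756562) had no peak at either end and 4 inside. The strongest, of 2126 bp and 7.02-fold (28700902 to 28703027), is also at the end of the antisense long noncoding gene EXTL3-AS1, and was the highest of any peak inside a member. The others had 4.72-, 3.71- and 3.41-fold, and the 4 together spanned 13068 bp. No strand or start was given for EXTL3 in the tables used, so whether the 7.02-fold peak lies at an inner start of the gene was not tested. By the count of peaks at the ends alone EXTL3 would have passed for unmarked.

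Of the modifying enzymes, NDST1 and NDST2 remove acetyl groups from N-acetylglucosamine and sulfate the freed nitrogen, the step on which later modification depends. NDST1 (NCBI gene 3340, chromosome 5, 150497779 to 150558211) had a peak of 1234 bp and 3.86-fold over its start and 2 weaker or similar ones in its body (2.44-fold and 4.15-fold). The strongest signal near it lay before the gene: 7 peaks lay in the 50000 bp preceding the start. Among them were one of 14.8-fold (150485214 to 150487556, -log10 q of 87.03), 10223 bp from the start, and one of 7638 bp and 6.44-fold (150468259 to 150475896), 21883 bp from it. These lay at either end of the long noncoding gene NDST1-AS1. Only 71 of the 28695 peaks had a higher fold than the first. Joined over gaps of up to 12.5 kb, the start peak of NDST1 belonged to a domain of 8 peaks and 49613 bp, rank 79 by span in the library. With gaps of up to 5000 bp it was 13374 bp (4 peaks, rank 355), with up to 25000 bp it was 106035 bp (11 peaks, rank 117), and at a -log10 q of at least 5 it was 30329 bp (3 peaks, rank 185). NDST2 (NCBI gene 8509, chromosome 10, 73801916 to 73811820) had 1 peak, of 1585 bp and 3.95-fold (73810856 to 73812440), over both its starts. That peak also lay at NDST2-ZSWIM8-AS1 and came within 1000 bp of an end of CAMK2G. The end peaks of NDST1 and NDST2 had 3.86-fold and 3.95-fold.

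GLCE encodes the epimerase that turns glucuronic into iduronic acid, HS2ST1 the 2-O-sulfotransferase that acts on the product, and HS6ST1 a 6-O-sulfotransferase of glucosamine. GLCE (NCBI gene 26035, chromosome 15, 69160635 to 69272207) had a start peak of 1418 bp and 4.83-fold and a faint body peak of 788 bp and 2.93-fold. HS2ST1 (NCBI gene 9653, chromosome 1, 86914635 to 87109982) had the strongest end peak of the 10 genes, of 1763 bp and 6.63-fold with a -log10 q of 17.4 (86913757 to 86915519), over its start and also at an end of the selenoprotein gene SELENOF. The rest of its 195348 bp held no peak. HS6ST1 (NCBI gene 9394, chromosome 2, 128265480 to 128318868) had the weakest, of 298 bp and 3.22-fold (128319098 to 128319395), wholly outside the gene and 230 bp before its start. A much stronger peak, of 782 bp and 13.7-fold with a -log10 q of 79.5 (128321965 to 128322746), lay 3097 bp before the start, in no annotated gene. These 2 peaks are the nearest inside and outside the limit of 1000 bp among the members that had a peak beyond an end. Among the 4948 peaks over 1000 bp from any RefSeq gene of any kind, whose median was 3.85-fold, the 13.7-fold peak ranked 6 by fold.

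**Figure D4:**
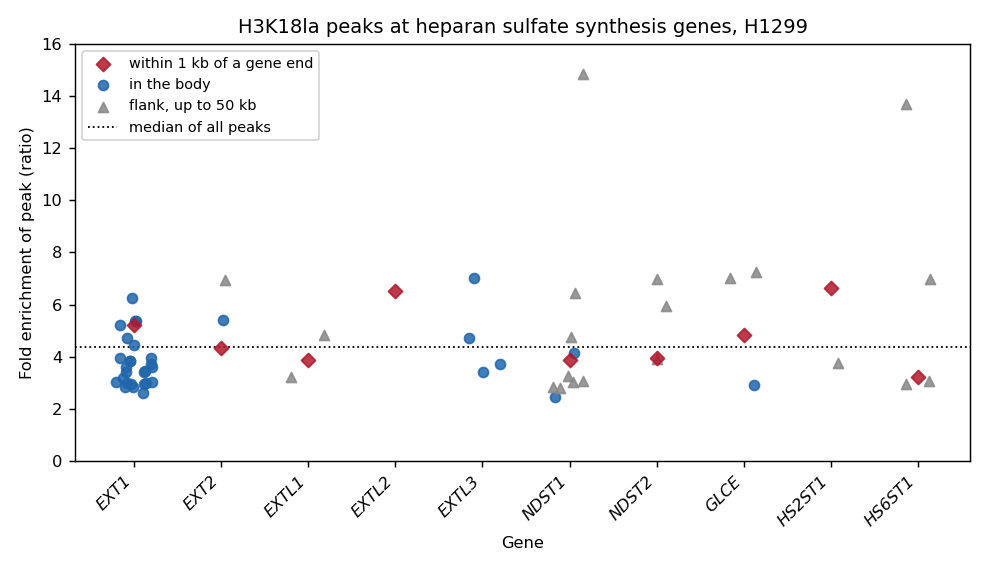
Fold enrichment of each of the 64 peaks by gene and by place (red, within 1 kb of a gene end; blue, in the body; grey, in the flank up to 50 kb), with the median of all peaks as a dotted line. The highest values, 14.8 near NDST1 and 13.7 near HS6ST1, lie in flanks, and the end peaks lie between 3.22 and 6.63.

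The strongest end peaks of the list, those of HS2ST1 and EXTL2, both lay at an end of another protein-coding gene too. This held for 4 of the 9 marked members (44.4%, the others being EXTL1 and NDST2), against 32.9% of all marked protein-coding genes. Over all marked genes the median fold was 5.73 for shared and 5.61 for unshared end peaks. Among the members it was 5.23 for shared and 4.34 for unshared ones, and the part of sharing in the folds was not tested. The members' shared peaks ran from 3.87-fold to 6.63-fold and the unshared ones from 3.22-fold to 5.21-fold, so that the ranges overlapped.

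Peaks in the flanks were found for 7 of 10 members (70%, 34.8 to 93.3), close to the 70.3% of all protein-coding genes, and not for EXT1, EXTL2 and EXTL3. With flanks of 20000 bp the count was 3 of 10, against 47.8% of all protein-coding genes. Of the 21 flank peaks, 10 lay at an end of another gene, 3 only inside one and 8 in none. Those at gene ends had a median of 6.19-fold. The others had a median of 3.06-fold and ran from 2.79-fold to the 13.7-fold peak before HS6ST1. Examples of peaks that belong to neighbours are the 6.94-fold peak at ACCS, 28682 bp from EXT2, the 6.97-fold peak at SEC24C and POFUT4, 28855 bp from NDST2, and the 7.03-fold peak at PAQR5, 26364 bp from GLCE.

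From the fold and -log10 p of a peak, an approximate control level can be computed, in reads as scaled by the caller. The computation treats a peak as a single position, though the fold is an average over the peak, so the levels are rough for wide peaks. They stand for the caller's local background and were not read from the input library. Over all peaks the median was 3.83 (quartiles 2.91 and 5.06). The 27 peaks of EXT1 had a median of 4.20, at percentile 58.8 of all peaks. This was below the median of 5.75 for the 466 peaks of chromosome 8 from 100 Mb on. Over all peaks in the same 5 Mb stretch, which take in those of EXT1, the median was also 4.20. The highest value in EXT1 was that of its end peak, 8.73. For comparison, the peaks of RAD51B had a median of 8.91 and those of SMAD3 3.93. Among the other members the median ran from 3.19 at EXTL3 to 7.22 at HS6ST1, with EXTL2 (7.08) and NDST2 (6.69) also near the upper end. The values of HS6ST1, EXTL2 and NDST2 each rest on 1 end peak, as do those of EXTL1 (3.85) and HS2ST1 (4.34). That of EXTL3 rests on 4 body peaks. The end peak of EXT1, at 8.73, was above them all. At HS6ST1 a high control level (percentile 93.5) and the lowest end fold stood together, and at EXTL2 a high one stood beside a fold of 6.51. The 4 flank peaks of HS6ST1 had levels of 6.48 (13.7-fold), 6.14 (6.97-fold), 7.19 (3.05-fold) and 3.52 (2.94-fold). The part of the control level in these folds was not tested.

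Beyond the members, 9 lists held 70 genes: the rest of the pathway and 16 genes of the related chain chondroitin and dermatan sulfate. Of the 70 genes, 49 had a peak at an end, with a median of 5.83-fold. Of all protein-coding genes 59.1% had one, with a median of 5.66-fold. All 11 genes of sulfate and sugar donors had one, among them UGP2 (10.0014-fold, also at WDPCP), which makes UDP-glucose, SLC35D1 (9.68-fold), a transporter of UDP-sugars into the secretory pathway, and PAPSS2 (7.22-fold), which makes the sulfate donor PAPS. All 8 lysosomal degradation genes had an end peak, led by HGSNAT (7.93-fold), NAGLU (6.95-fold) and SGSH (6.90-fold, also at SLC26A11), and none of the 4 extracellular editing genes did. Those are the endosulfatase genes SULF1 and SULF2, the heparanase gene HPSE and its relative HPSE2, of which HPSE2 had a body peak of 3.91-fold.

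Linkage region enzymes, which make the linker sugars common to heparan and chondroitin sulfate, had end peaks in 5 of 7 cases (71.4%), with XYLT2 at 7.96-fold, B3GALT6 at 6.56-fold (also at SDF4) and B3GAT3 at 6.48-fold. XYLT1 had no peak at its ends or in its body. FAM20B, the xylose kinase gene, had none at its ends and 3 in the body, up to 9.16-fold. The other sulfotransferases of heparan sulfate had end peaks in 4 of 11 cases (36.4%, 10.9 to 69.2): HS3ST3A1 (6.79-fold), NDST3 (5.03-fold), HS3ST5 (4.79-fold) and HS3ST3B1 (4.35-fold). Among the 7 without were NDST4, HS6ST2 and HS3ST1, which had no peak in the body either. In each of the families of N-deacetylases and 6-O-sulfotransferases the members described above were marked at an end (NDST1, NDST2 and HS6ST1). Of their relatives NDST3 was and NDST4, HS6ST2 and HS6ST3 were not. HS6ST3 had 2 body peaks of up to 3.95-fold, while the end peak of HS6ST1 lay wholly outside the gene.

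Of the core proteins, all 3 secreted ones had an end peak (2 of 3 when a peak's midpoint had to lie in the end window), AGRN at 12.3-fold, COL18A1 at 6.44-fold (also at BNAT1) and HSPG2, the perlecan gene, at 5.83-fold. Syndecans, which span the membrane, had one in 3 of 4 cases (2 of 4 by midpoint), with SDC4 at 8.40-fold, SDC1 at 6.03-fold and SDC3 at 4.28-fold, and SDC2 had only body peaks of up to 3.83-fold. Glypicans, which are held by a lipid anchor, had one in 2 of 6, GPC1 (6.61-fold) and GPC2 (3.83-fold, also at STAG3). GPC3 and GPC4 had no peak at the ends or in the body, and GPC6 had 3 in the body of up to 6.26-fold. The genes of the related chain chondroitin and dermatan sulfate had an end peak in 13 of 16 cases (81.2%, 54.4 to 96.0), with CHST14 at 10.2-fold, CHPF2 at 9.56-fold and CHST3 at 8.29-fold and none at CHST13, CSGALNACT1 and CHST15. The intervals of most of these short lists include the 59.1% of all protein-coding genes. Those of the donor list (71.5 to 100) and the degradation list (63.1 to 100) lie above it. With peaks of -log10 q 5 or more alone, the degradation list had 7 of 8 (47.3 to 99.7), which includes the 52.4% of all protein-coding genes counted that way. None of these shares was tested between lists.

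**Figure D5:**
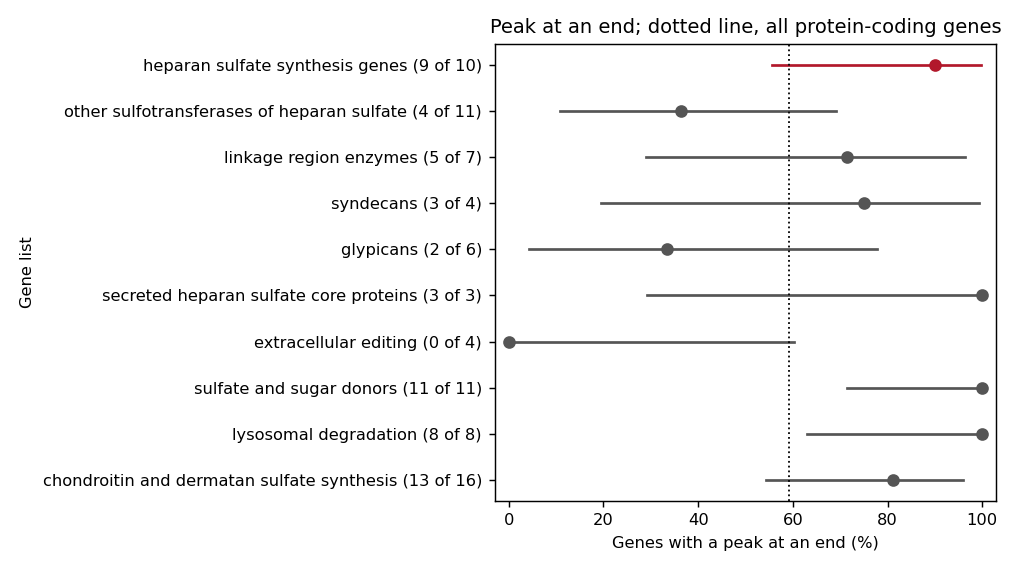
Share of genes with a peak at an end (points, %) with exact 95% binomial intervals (lines) for the 10 members (red) and 9 other lists. These are lists of the pathway and of the related chondroitin and dermatan sulfate chain. The dotted line is the share of all protein-coding genes. The members stand at 9 of 10, and the lists run from 0 of 4 for extracellular editing to 11 of 11 for donors.

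The identity of the cells was checked by peaks only. All 3 mesenchymal markers VIM (8.09-fold), ZEB1 and CDH2 had an end peak, as did 3 of 5 epithelial ones, KRT8 and KRT18 (which share 1 peak) and KRT19 (in a peak outside the gene, also at KRT15), while EPCAM and CDH1 had none there, CDH1 having a body peak of 3.98-fold. These counts stand beside the 59.1% of all protein-coding genes with an end peak, so that 3 of 5 is close to the share of any gene. In the body KRT8 had 4 peaks of up to 8.34-fold, CDH2 had 2 of up to 4.53-fold and ZEB1 had 1 of 3.47-fold. None of the 4 blood and 2 liver markers had an end peak, and the blood marker PTPRC had a body peak of 3.60-fold. Of the lung lineage markers NKX2-1 had 3.90-fold, in a peak also at the long noncoding genes SFTA3 and NKX2-1-AS1. SFTPC lay near a peak of 10.2-fold that is outside the gene and also lies at BMP1, and SFTPB had none. Since the sequencing depth is unknown, genes described as unmarked lack a listed peak and are not shown to lack H3K18la.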

How the data were processed

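Chromatin immunoprecipitated with anti-H3K18la from H1299 was analysed as 1 deposited peak list with no header; the input library was not analysed here. Tools credited in the submitters' processing notes are bcl2fastq 2.17, cutadapt 1.18, Trimmomatic 0.38, Bowtie2 2.3.4.1, Picard, MACS2 (2.1.2 and 2.1.0) and ChIPseeker, with the build hg38. The caller's settings and control are not given in the sources used here, and the series text names IgG where the labels name input. The fold enrichment, a ratio to local background, and the significance are as deposited by the authors, the second as -log10 p and -log10 q (largest q-value 0.0472), and the deposited score, about 10 times -log10 q, was not used. The library's depth is unknown.

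Starts of the list were moved to 1-based positions. Peaks were compared with RefSeq gene spans (GRCh38.p14), of which 718 entries, taken from their place in the table to be on alternate or unlocalised sequences, were left out. Annotated starts and strands came from RefSeq promoter windows, which covered 8 of the 10 genes. Control levels assumed the Poisson model of MACS2 with a pseudocount of 1 and treated each peak as a single position, so they are approximate. Alternatives changed the window, the flank, the joining gap, the overlap rule and the peak threshold. The code was checked on simulated peaks. Python 3.11.15, pandas 2.3.3 and SciPy 1.17.1 were used.

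The members and gene lists were chosen with earlier results of these data known. The text names all members, up to 3 genes of highest fold and up to 3 without an end peak from each other list, genes under a member's peak, and the 5 long genes nearest to EXT1 in rank. FAM20B, SDC2, GPC6, HPSE2, HS3ST3B1, HS6ST3, SAMD12, MED30 and SNORD168 were added after their values were seen where the rule did not cover them.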

Additional observations from a re-analysis of the deposited data

How the results depend on the processing

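Windows of 500 and 3000 bp, a -log10 q of at least 5 and counting a peak by its midpoint each left 9 of 10 members marked at an end. The shares of all protein-coding genes were 57.7%, 62.4%, 52.4% and 54.8%, in that order. Among peaks with a fold above the median of the list it was 4, without EXT2, EXTL1, NDST1, NDST2 and HS6ST1, against 8935 of 19866 protein-coding genes, and 3 members kept body peaks, against 13.2% of those genes. With flanks of 20000 bp, 3 members had a flank peak, against 47.8% of protein-coding genes. The widest joined domain of EXT1 was 38023 bp with 9 peaks and 23725 bp under peaks when gaps of up to 5000 bp were joined. Where -log10 q was 5 or more, the widest was 22494 bp with 2 peaks and 22004 bp under peaks. The EXT1 gene then held 11 peaks, and above the median fold 7 peaks over 43541 bp. These changes follow from the smaller set of peaks, the shorter gap or the shorter flank. By midpoint the syndecans marked at an end were 2 of 4 and the secreted core proteins 2 of 3; no count of the other lists and no control level moved by more than 1.5 times. Depth, which is unknown, limits what a missing peak can say. No paired analysis was possible because each group has 1 library.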
